A study of Homo sapiens with 8 samples.

Results

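The 10 genes described here, HK2, GPI, PFKP, ALDOA, TPI1, GAPDH, PGK1, ENO1, PKM and LDHA, encode enzymes that carry glucose to lactate in most dividing human cells. For each of 10 steps 1 isoform was taken, which need not be the most abundant one in these cells. The phosphoglycerate mutase step between PGK1 and ENO1 has no gene among the 10. They were picked by name from a deposited table of 60651 genes, and each matched 1 Ensembl identifier with the version suffix ignored. Ribosome profiling had been performed on IMR32, a human neuroblastoma line with amplified MYCN, labelled as wild type. It reads the mRNA fragments that ribosomes shield from nuclease, here fragments of 28 to 30 nt. Of 8 libraries, 4 came from cells given CR31B, a silvestrol analogue that acts on the RNA helicase eIF4A, and 4 came from control cells given the solvent DMSO at 0.1%. Cells of both groups were harvested after 6 h, with cycloheximide added first to hold ribosomes in place. The design calls the 4 libraries of a group biological replicates. Nothing in the labels says that they came from separately kept stocks, so p-values measure the spread between these libraries in 1 cell line.

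Glycolysis splits glucose into a pair of pyruvate molecules in the cytosol. Hexokinase traps glucose as its phosphate, phosphofructokinase commits it to the pathway, aldolase and triose phosphate isomerase make the 3-carbon units, and the later enzymes harvest ATP. Lactate dehydrogenase then regenerates NAD+ by turning pyruvate to lactate. Tumour cells often run this route even with oxygen present, and several of its genes are classical targets of MYC and of the hypoxia factor HIF-1. eIF4A unwinds the 5′ leaders of mRNAs for initiation, and rocaglates such as CR31B clamp it onto polypurine stretches. A footprint level is set both by the amount of an mRNA and by how many ribosomes it carries. Without matched RNA measurements, fewer ribosomes per mRNA and less mRNA cannot be told apart.

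Values are TPM, which are relative to gene length and to the sum of each library. Levels can be compared between genes and between libraries only as relative shares. A gain or loss of footprints common to all genes would not show, so higher and lower are meant relative to the rest of the library. From 17857 to 22270 genes were above 0 per library. Protein-coding genes took 61.3% of TPM in CR31B replicate 1, against 51.8% to 52.3% in the other CR31B libraries and 52% to 58.4% in DMSO. CR31B replicate 1 was also the highest CR31B library for 7 of the 10 enzymes, and their estimates without it are given below. ISL1, a transcription factor of noradrenergic neuroblastoma, stood at 29.31 to 35.65 TPM over the 8 libraries and the noradrenaline-synthesis gene DBH at 26.35 to 70.65 TPM, while the T-cell gene CD3E, the haemoglobin gene HBB, the endothelial gene PECAM1 and the mesenchymal gene PRRX1 were listed at 0 in all 8. Of 9 mesenchymal markers, 3 reached a mean of 1 TPM: COL1A1 at 5.28 to 16.13 TPM, FN1 at means of 4.63 TPM in CR31B and 4.61 TPM in DMSO, and PDGFRB at 2.05 to 4.31 TPM. None of 6 blood and endothelial markers and none of 5 glial markers did, although the endothelial CDH5 was listed at 0.34 to 0.57 TPM in CR31B and 0.62 to 1.01 TPM in DMSO. The part of these markers in the results was not tested. The dopamine-synthesis gene TH was low, at 0.35 to 1.19 TPM.

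Most of these enzymes were among the most abundantly footprinted genes of the cell line. In DMSO, GAPDH, the glyceraldehyde phosphate dehydrogenase, led with 2665 ± 356 TPM (SD, n = 4), rank 37 of the 11778 genes whose mean reached 1 TPM. PKM, the pyruvate kinase, followed with 2034 ± 242 TPM, and LDHA, the muscle-type subunit of lactate dehydrogenase, with 1419 ± 157 TPM. The ranges of these 3 genes did not touch in DMSO. ALDOA (aldolase A, 802 ± 61.6 TPM) and TPI1 (triose phosphate isomerase, 748 ± 48.8 TPM) came next, and their ranges overlapped. ENO1 (enolase 1), PGK1 (phosphoglycerate kinase 1) and GPI (glucose phosphate isomerase) stood apart from each other at 504 ± 49.3, 266 ± 41.5 and 178 ± 19.7 TPM. The enzymes at the 2 regulated entry steps were far lower and overlapped: PFKP, the platelet-type phosphofructokinase, at 35.7 ± 9.03 TPM and HK2, the inducible hexokinase, at 26.6 ± 4.26 TPM. In CR31B the order of the means differed at 1 place, TPI1 (747 ± 76.2 TPM) standing above ALDOA (567 ± 63.3 TPM) with ranges apart. PKM and LDHA, ALDOA and ENO1, and PGK1 and GPI were neighbours whose ranges overlapped there.

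**Figure D1:**
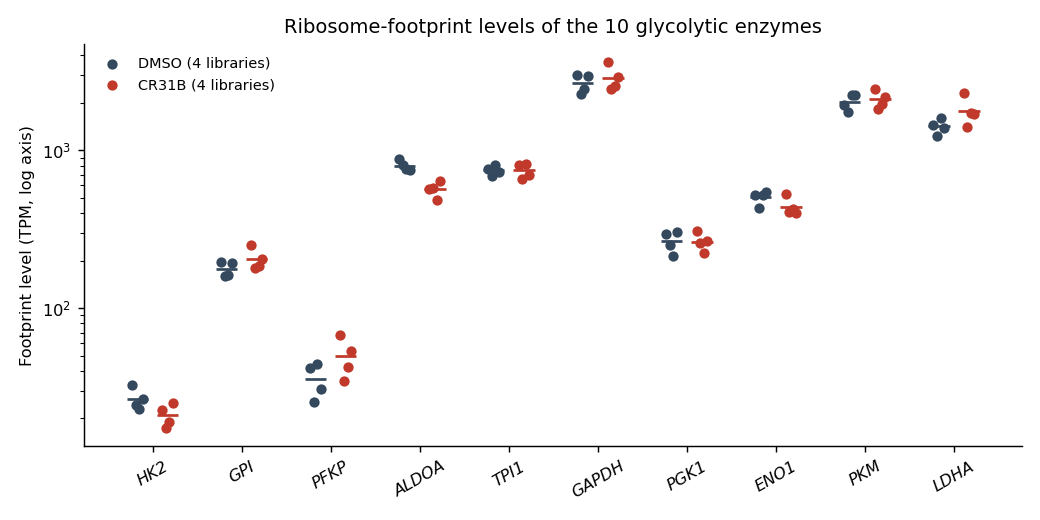
Footprint level in TPM, on a log axis, of the 10 glycolytic enzymes in each of 4 DMSO and 4 CR31B libraries; points are libraries and bars are group means. ALDOA is the enzyme whose groups are apart, 485.00 to 638.93 TPM in CR31B below 750.34 to 884.95 TPM in DMSO, and in the other 9 the groups overlap.

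Because CR31B acts on initiation, the sequences ahead of the start codon are shown for some of the enzymes, a paralog and a transporter named below. They were not chosen by run length, and enzymes not shown can have longer runs. Leaders were read from 1 GENCODE 29 transcript per gene (GRCh38). The first set gives the longest uninterrupted run of A and G in the leader, in capitals, with its flanking bases. Where runs tie in length, the first is shown.
HK2: acgtcgccAGGAGAGAActgaggcg
LDHA: ttccgagcGGGAAGGAGAGccacaaag
ALDOA: cgcgccgcAGAAGGGGtcctggtg
ALDOC: cagaagctGAGAGAAGAGGGtggcaata
SLC2A1: attttgctAGAGAAGGccgcggag
The run in LDHA was 11 nt; 75.6% of the 10107 tested coding genes with a leader had a shorter one. The median longest run over these genes was 8 nt, which is also the length in ALDOA and SLC2A1. The polypurine motifs AGAGAG and GAGAGA occur in 9.75% and 9.92% of these leaders. The SLC2A1 leader holds both motifs outside the run shown. The longest run was 9 nt in HK2 and 12 nt in ALDOC. In the hexokinase paralog HK1 and the lactate exporter gene SLC16A1, both higher in CR31B with groups apart, it was 12 and 11 nt. A relation of run length to the change in level was not tested. The ALDOA leader, 188 nt against a median of 190 nt, was poor in purines, with 36.7% A or G; 4.16% of leaders were lower. Its GC content was 68.6% (median 66.7%). In 9 of the 10 enzymes the purine share of the leader was under the median of 51%. These values describe the annotated leader only, and the leaders used in IMR32 were not mapped here.

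The second set gives the start codon with its flanks for the enzymes and the paralogs with which they are compared. Capitals mark the base 3 before the start codon, the start codon and the base after it.
ALDOA: actaccagcAccATGCcc
ALDOC: ggagctgtcAccATGCct
HK2: ggccgcggcAggATGAtt
HK1: ccgaccgccAgcATGAtc
LDHA: tccaagtccAatATGGca
LDHB: ctcctgtgcAaaATGGca
All 10 enzymes had a purine at the upstream position, as did 86.5% of all genes, and 5 of 10 (GPI, PFKP, TPI1, GAPDH and LDHA) had a G after the start codon, against 53.9% of all. ALDOA, HK2, PGK1, ENO1 and PKM lacked that G.

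The main comparison asked how the footprint level of each enzyme differed after 6 h of CR31B. Of the 10 enzymes, 1 passed the limma test at an adjusted p under 0.05: ALDOA was lower. The other 9 did not pass, 5 with estimates above 0 and 4 below. Of all 11778 genes tested, 7.46% passed (879), 3.45% as higher (406) and 4.02% as lower (473), so 1 of 10 is close to the background share. With the replicate number as a block, 12.3% of all genes passed (1453), and of the enzymes still ALDOA alone. The median log2 fold change of the 10 enzymes was 0.02 against 0.03 over all genes tested, and the median absolute log2 fold change was 0.20 in both. Groups were apart for 1 of the 10 enzymes and for 16.2% of all genes.

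ALDOA (chromosome 16, 30064164 to 30070457, plus strand, GRCh38) encodes the aldolase that cleaves fructose bisphosphate into the triose phosphates. Its level in DMSO was 884.95, 813.54, 760.74 and 750.34 TPM, and after CR31B it was 565.92, 578.45, 485.00 and 638.93 TPM (here and below in the order of replicates 1 to 4). Every CR31B library was below every DMSO library, and each CR31B library was below the DMSO library of its number. The means were 567 ± 63.3 and 802 ± 61.6 TPM (SD, n = 4 each), a fold of 0.705. On the log2 scale the level differed by -0.50, with an SE of 0.12 and a 95% confidence interval from -0.78 to -0.23. The limma adjusted p was 0.0342, and the exact permutation p of 0.0286 was the smallest that 4 against 4 libraries allow. Over 21 alternatives the log2 fold change stayed between -0.56 and -0.42 and the limma adjusted p ran from 0.0197 to 0.100; it was under 0.05 in 12. It was above 0.05 with no filter on low values (0.0857), after quantile normalization (0.0585) and when any library other than DMSO replicate 3 was left out (0.0506 to 0.100).

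At the top of the pathway, HK2 and HK1 are the hexokinases of these cells. HK2 (chromosome 2, 74833981 to 74893359) stood at 22.69, 17.43, 18.97 and 25.23 TPM in CR31B and at 32.55, 24.36, 22.85 and 26.59 TPM in DMSO. It was lower in CR31B in 4 of 4 replicate pairs, but the groups overlapped. The log2 fold change was -0.32, SE 0.15 and interval -0.66 to 0.01 (limma adjusted p of 0.231). GPI, which converts glucose phosphate to fructose phosphate, was higher in 4 of 4 pairs, with 178.99 to 252.33 TPM in CR31B and 159.26 to 196.29 TPM in DMSO. Its log2 fold change was 0.20 (SE 0.14, interval -0.10 to 0.51, limma adjusted p of 0.421), and the groups overlapped. Without CR31B replicate 1, its highest library, it was 0.098. PFKP (chromosome 10, 3066333 to 3137712) stood at 67.62, 34.49, 42.45 and 53.77 TPM in CR31B and at 41.94, 25.46, 44.56 and 30.95 TPM in DMSO. It had the widest interval of the 10, -0.05 to 0.96 around 0.45 (SE 0.23, limma adjusted p of 0.265), and was higher in 3 of 4 pairs. Without CR31B replicate 1 its log2 fold change was 0.29.

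The enzymes from the triose phosphates to pyruvate had overlapping groups, and none passed the limma test. TPI1, which interconverts the triose phosphates, was at 662.38 to 816.61 TPM in CR31B and 691.36 to 807.73 TPM in DMSO, with a log2 fold change of -0.0048 (interval -0.27 to 0.26, limma adjusted p of 0.984). PGK1, the first ATP-making step, was equally close, with a log2 fold change of -0.01 (interval -0.33 to 0.32, limma adjusted p of 0.981). For GAPDH the log2 fold change was 0.11 (interval -0.26 to 0.48, limma adjusted p of 0.754), and without CR31B replicate 1, its highest library at 3621.22 TPM, it was -0.0077. ENO1, which makes phosphoenolpyruvate, was at 398.77 to 532.27 TPM in CR31B and 432.56 to 545.49 TPM in DMSO, a log2 fold change of -0.20 (interval -0.49 to 0.10, limma adjusted p of 0.407). For PKM, which makes pyruvate, it was 0.05 (interval -0.27 to 0.38, limma adjusted p of 0.872). These intervals still leave room for moderate changes, and none shows that a level stayed the same. The sign of the estimates for TPI1, PGK1, GAPDH and PKM turned when single libraries were left out. Without CR31B replicate 1 the estimate was -0.085 for PGK1, -0.29 for ENO1 and -0.02 for PKM.

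LDHA (chromosome 11, 18394388 to 18408425) closes the pathway by reducing pyruvate. It stood at 2329.09, 1407.71, 1728.26 and 1694.91 TPM in CR31B and at 1447.60, 1226.17, 1606.12 and 1394.58 TPM in DMSO. CR31B replicate 1 was far above the rest, and the groups overlapped, while each CR31B library was above the DMSO library of its number. The log2 fold change was 0.32, SE 0.17 and interval -0.06 to 0.69 (limma adjusted p of 0.288), and it was 0.18 without CR31B replicate 1.

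**Figure D2:**
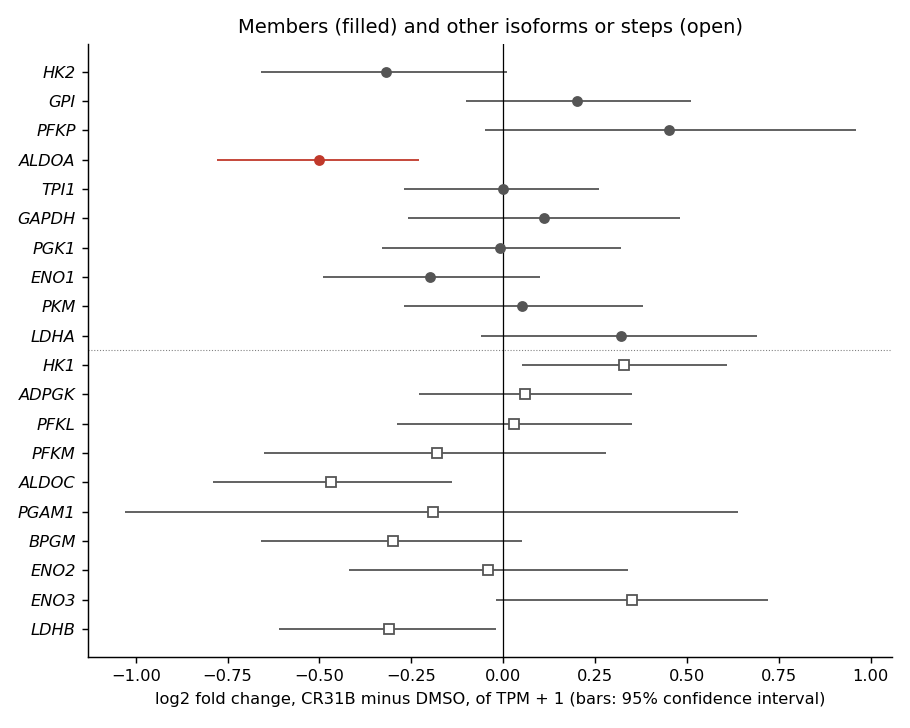
Log2 fold change of TPM + 1, CR31B minus DMSO, with 95% confidence intervals for the 10 enzymes (filled circles) and for 10 further isoforms or steps (open squares); red marks a limma adjusted p under 0.05. ALDOA, at -0.50, is the one red point, and the intervals of HK1, ALDOC and LDHB, which are grey, also leave out 0.

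Taken as a sum, the 10 enzymes held a similar share of TPM in both groups. The share of TPM was 0.91%, 0.765%, 0.881% and 0.915% in DMSO, and 1.1%, 0.785%, 0.844% and 0.908% after CR31B. The groups overlapped, and the mean difference of 0.0404 percentage points was smaller than either SD (0.135 and 0.0701). Without CR31B replicate 1, the highest library, the difference was -0.022. As a percent of protein-coding TPM the share was 1.67 ± 0.125 in CR31B and 1.56 ± 0.122 in DMSO, higher in CR31B in 3 of 4 pairs. The make-up of that sum is given as a description, with no test. ALDOA took 9.3% ± 1.1 of the summed TPM in DMSO but 6.33% ± 1.04 after CR31B (SD, n = 4 each), and its ranges were apart. ENO1 took 5.8% ± 0.148 in DMSO and 4.86% ± 0.342 after CR31B. Its ranges were also apart (5.65% to 5.96% in DMSO against 4.39% to 5.18% in CR31B). GPI lay the other way, 2.19% to 2.3% in CR31B above 1.85% to 2.16% in DMSO. LDHA took 16.3% ± 1.3 in DMSO and 19.6% ± 1.55 after CR31B, with overlapping ranges. GAPDH and PKM, the largest parts, took 31.7% and 23.3% in CR31B and 30.6% and 23.4% in DMSO.

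**Figure D3:**
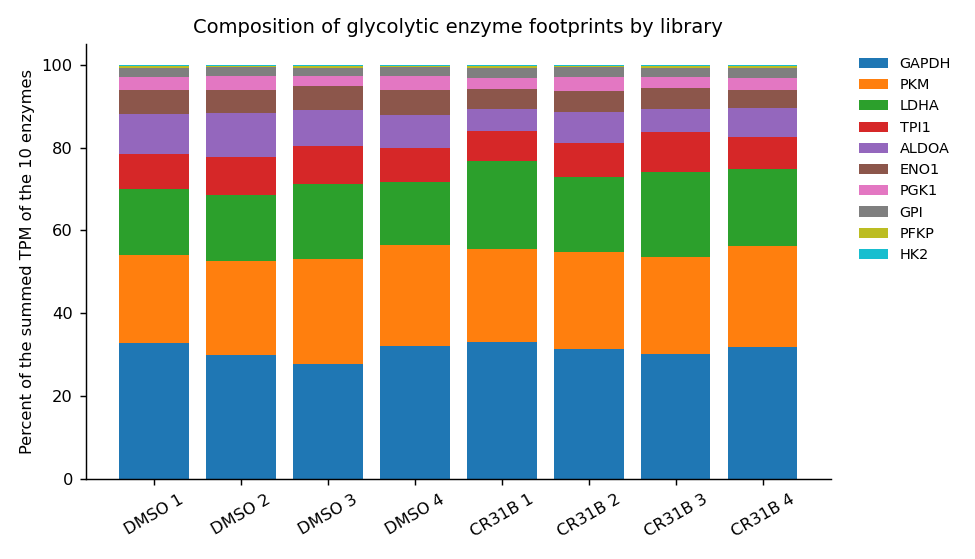
Percent of the summed TPM of the 10 glycolytic enzymes taken by each enzyme, as stacked bars from 0 to 100 for the 4 DMSO and 4 CR31B libraries. GAPDH and PKM fill more than the other enzymes in each library, and the ALDOA segment is 8.2% to 10.6% in DMSO and 5.17% to 7.37% in CR31B.

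The isoforms that can stand in for an enzyme, and the steps without one of the 10, were examined as a list of 20 genes. Of these, 10 reached a mean of 1 TPM and 0 of 10 passed the limma test, while 3 of 10 had an unadjusted p under 0.05 (23.4% of all genes did). With the replicate block 1 of 10 passed, ALDOC, beside 12.3% of all genes. Tissue-restricted forms below the filter included HK3, HKDC1, GAPDHS, PGK2, PGAM2, PKLR, LDHC and LDHAL6B. HK1, the constitutive hexokinase, stood at 27.34, 22.30, 22.70 and 25.80 TPM in CR31B and at 19.89, 15.72, 21.11 and 20.70 TPM in DMSO. Its groups were apart, with a log2 difference of 0.33 (SE 0.13, interval 0.05 to 0.61, limma adjusted p of 0.149). ALDOC, the aldolase of brain, was at 9.74, 7.88, 7.69 and 7.96 TPM in CR31B and 14.51, 11.54, 9.39 and 12.37 TPM in DMSO. The groups overlapped by 1 library of each, and it was lower in 4 of 4 pairs. The log2 fold change was -0.47 (SE 0.15, limma adjusted p of 0.0806, 0.0334 with the replicate block, 0.0428 without DMSO replicate 3 and 0.0387 to 0.0421 under 3 other scalings).

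LDHB, the heart-type subunit that mixes with LDHA in the lactate dehydrogenase tetramer, was above LDHA in DMSO, at 1774 ± 147 TPM (SD, n = 4). It stood at 1681.17, 1391.03, 1331.95 and 1325.82 TPM in CR31B and at 1707.71, 1600.01, 1912.29 and 1877.48 TPM in DMSO. It was lower in CR31B in 4 of 4 pairs, and CR31B replicate 1 lay within the DMSO range. The log2 fold change was -0.31 (SE 0.13, limma adjusted p of 0.188). The phosphofructokinases PFKM and PFKL were at 49.5 ± 9.42 and 10.5 ± 1.93 TPM in DMSO, with log2 fold changes of -0.18 and 0.03. With 1 library left out PFKM ran from -0.32, without CR31B replicate 1 or DMSO replicate 2, to -0.028, without CR31B replicate 2. The neuronal enolase ENO2 was at 103 ± 17.1 TPM in DMSO, with a log2 fold change of -0.04. ADPGK, an ADP-dependent glucokinase, was at 0.06 (0.005 to 0.18 with 1 library left out). BPGM, which makes bisphosphoglycerate, was at -0.30 and ENO3, the muscle enolase, at 0.35 (limma adjusted p of 0.288 and 0.237). ENO3 exons overlap the opposite-strand gene PFN1, at a mean of 598.808 TPM, and since the strand setting is not given in the sources used here, ENO3 reads are uncertain. PFKM exons likewise overlap the opposite-strand gene SENP1, at a mean of 10.127 TPM against 46.855 TPM for PFKM, so part of its reads is uncertain.

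A ratio of 2 genes within a library hardly depends on how that library was scaled, so 6 pairs of enzyme and paralog were compared by a two-sided exact permutation test of log2 ratios, with 1 TPM added to each gene. HK2 over HK1 was 0.83, 0.782, 0.836 and 0.978 in CR31B and 1.64, 1.55, 1.08 and 1.28 in DMSO. HK2 exceeded HK1 in every DMSO library and was below it in every CR31B library. The log2 ratio differed by -0.65, a fold of 0.636 (exact permutation p of 0.0286, the smallest possible, and 0.0857 adjusted over the 6 pairs). LDHA over LDHB was 1.39, 1.01, 1.3 and 1.28 in CR31B and 0.848, 0.766, 0.84 and 0.743 in DMSO. LDHB led in all 4 DMSO libraries and LDHA in all 4 CR31B libraries, a log2 difference of 0.63, or 1.55-fold (exact permutation p of 0.0286, and 0.0857 adjusted). Neither pair passed 0.05 once adjusted. With a floor of 0.0286 over 6 pairs, none could pass unless most of the pairs sat at that floor. The adjusted values therefore decide little. Leaving out CR31B replicate 1 kept the difference at 0.57 for LDHA over LDHB and at -0.64 for HK2 over HK1.

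The other 4 pairs overlapped. PFKP over PFKM differed by 0.64 on the log2 scale (exact permutation p of 0.0571, 0.114 adjusted), and PFKP over PFKL by 0.42 (0.143, 0.214 adjusted). ENO1 over ENO2 differed by -0.16 (exact permutation p of 0.486), and by -0.012 without DMSO replicate 4. ALDOA over ALDOC was nearly the same in both groups, 58.1 to 80.3 in CR31B and 60.7 to 81 in DMSO (log2 difference -0.04, exact permutation p of 0.714). Coding sequences of the paired genes are 70% (LDHA and LDHB) to 76.4% (ALDOA and ALDOC) identical, and they share at most 23 windows of 28 nt (ENO1 and ENO2), so few of their footprints match both genes. LDHA and LDHB share 0, and HK2 and HK1 share 3. Genes outside the pairs also share windows. For LDHB, 93.4% of the 28-nt windows occur in another gene's transcript. Of all its windows, 90.6% occur in ENSG00000285854 and 16.4% in copies named after LDHB. The levels of these genes were not summed, so the LDHB level is uncertain to that extent. A same-strand protein-coding gene whose exons overlap those of LDHB, AC010197.2, was listed at a mean of 0.037 TPM against 1603.432 TPM for LDHB.

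**Figure D4:**
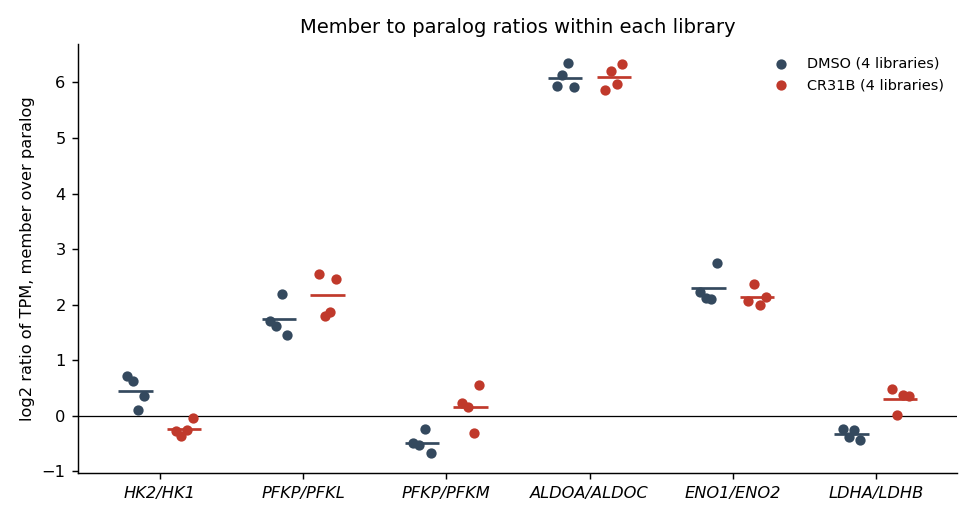
Log2 ratio of the TPM of an enzyme over that of its paralog in each library, for 6 pairs; points are libraries, bars are group means and the line at 0 marks equal levels. HK2/HK1 lies above 0 in all DMSO libraries and below 0 in all CR31B libraries, and LDHA/LDHB does the reverse.

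Several of the enzymes have processed pseudogenes, which are intronless copies of the mRNA elsewhere in the genome, and a footprint of 28 nt can match both. Stretches of 60 bases of the coding sequence and of the most abundant copy show how alike they are, with the bases that differ in capitals. GAPDHP65 is on chromosome X (46439709 to 46440714), LDHAP4 on chromosome 9 (14921337 to 14922334), TPI1P1 on chromosome 1 (76699789 to 76700538) and HK2P1 on chromosome X (80571871 to 80574607), all in GRCh38 and GENCODE 29.
GAPDH: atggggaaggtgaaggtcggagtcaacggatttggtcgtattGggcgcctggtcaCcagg
GAPDHP65: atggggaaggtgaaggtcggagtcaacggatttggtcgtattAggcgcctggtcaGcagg
LDHA: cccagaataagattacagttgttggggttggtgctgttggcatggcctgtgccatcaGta
LDHAP4: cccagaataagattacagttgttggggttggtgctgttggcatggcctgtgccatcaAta
TPI1: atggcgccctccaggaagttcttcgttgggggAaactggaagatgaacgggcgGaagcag
TPI1P1: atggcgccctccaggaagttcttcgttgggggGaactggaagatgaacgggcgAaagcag
HK2: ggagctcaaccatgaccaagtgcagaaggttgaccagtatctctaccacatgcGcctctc
HK2P1: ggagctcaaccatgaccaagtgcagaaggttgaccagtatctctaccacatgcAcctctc
The share of 28-nt windows of the coding sequence that also occur in another gene's transcript was 70.4% in GAPDH, 68.9% in TPI1, 53% in LDHA, 38% in HK2, 34.6% in PGK1, 22% in PKM, 21.5% in ENO1, 10.1% in GPI and 4.39% in PFKP. In ALDOA it was 100%, all of it in a readthrough gene on the same strand (AC093512.2) that was listed at a mean of 1.732 TPM against 684.734 TPM for ALDOA. In these windows the split of reads between gene and copy was set by the authors' software and not by sequence.

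The deposited values nevertheless placed little on the named copies of the 10 enzymes. GAPDH has 65 copies named after it, 53 of them above 0 in some library, and their summed TPM was 0.56% of the GAPDH level. The share was 1.66% for 6 copies of LDHA, 4.76% for the single copy of HK2 and 0.361% for 4 copies of TPI1, and under 0.1% for ALDOA, PGK1, ENO1 and PKM; GPI and PFKP have none. Of the copies, 9 reached the filter and 0 passed the limma test; LDHAP4, the most abundant at a mean of 14 TPM, had a log2 fold change of 0.33 (limma adjusted p of 0.197), beside 0.32 for LDHA. With the copies added, ALDOA was unchanged at -0.50 (limma adjusted p of 0.0341), and none of the other 9 enzymes passed.

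PGAM1, the phosphoglycerate mutase between PGK1 and ENO1, was where the copies took most of the signal. It was listed at 6.24, 7.58, 19.03 and 24.18 TPM in CR31B and 19.79, 15.72, 12.63 and 10.32 TPM in DMSO, far below its neighbours in the pathway. A processed pseudogene without a symbol, ENSG00000186076 (chromosome 12, 93640822 to 93641586), was listed at 164 to 258 TPM in CR31B and 167 to 272 TPM in DMSO. Its sequence is 99.9% identical to the PGAM1 coding sequence and holds 96.2% of its 28-nt windows. This stretch holds a base that differs, in capitals.
PGAM1: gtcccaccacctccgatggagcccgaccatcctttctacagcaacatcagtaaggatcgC
ENSG00000186076: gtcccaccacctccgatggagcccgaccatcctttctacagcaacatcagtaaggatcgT
A second such pseudogene, ENSG00000216285, had a mean of 179 TPM and 92.4% of the windows. Summed, 14 pseudogenes that share windows with PGAM1 held 319 to 498 TPM in CR31B and 328 to 500 TPM in DMSO. The level printed for PGAM1 alone can therefore not be read as that of the mutase. Its log2 fold change was -0.19 alone (limma adjusted p of 0.809) and -0.087 with these pseudogenes added (limma adjusted p of 0.816).

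Around the enzymes, 6 lists of 111 genes were examined in all, the isoforms included. Of the 83 tested, 8 were higher and 2 lower by the limma test, 12% against 7.46% of all genes. With the replicate block 16 passed, beside 12.3% of all genes.

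Glucose entry and lactate exit had 11 tested genes, of which 1 was lower and 1 higher (18.2%, against 7.46% of all genes). Groups were apart in 6 of 11 (16.2% of all genes). SLC2A1, the glucose transporter GLUT1, fell. It stood at 17.92, 28.99, 26.33 and 22.61 TPM in CR31B and at 50.92, 78.44, 53.51 and 61.77 TPM in DMSO. Every CR31B library was below every DMSO library by a wide gap. The means were 24 ± 4.8 and 61.2 ± 12.4 TPM (SD, n = 4 each). On the log2 scale this is a difference of -1.32 with an SE of 0.18 and an interval from -1.71 to -0.93 (limma adjusted p of 0.00253), and it passed in 19 of 19 alternatives. No 28-nt window of its coding sequence occurs in another gene. SLC16A1, the lactate exporter MCT1, is named here after its values were seen, as the counterpart of LDHA. It was at 189.66, 288.22, 195.81 and 185.34 TPM in CR31B and 134.12, 179.92, 132.11 and 158.72 TPM in DMSO. The groups were apart, with a log2 difference of 0.49 (SE 0.17, limma adjusted p of 0.106, and 0.0227 with the replicate block). SLC16A3, the exporter MCT4, rose from 0.7 ± 0.119 to 1.67 ± 0.432 TPM (log2 fold change 0.64, limma adjusted p of 0.0372). Its exons overlap CSNK1D on the other strand, at a mean of 31.15 TPM, so these few reads are uncertain. Its limma adjusted p was 0.0675 to 0.118 without CR31B replicate 1 or 4 or any 1 of the DMSO libraries, and 0.109 with no filter on low values. BSG, the chaperone of both exporters and the most abundant gene of the list, had a log2 fold change of -0.19 (limma adjusted p of 0.553), and -0.075 without DMSO replicate 1.

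Among regulators of glycolytic flux 1 of 17 passed (5.88%, against 7.46% of all genes). VHL, which marks HIF-1 alpha for destruction, rose from 5.49 ± 0.857 to 10.1 ± 1.67 TPM (log2 fold change 0.77, limma adjusted p of 0.0149). HIF1A itself was at 65.3 ± 10 TPM in DMSO against 49.6 ± 3.25 TPM after CR31B, lower in 4 of 4 pairs (log2 fold change -0.38, limma adjusted p of 0.108, 0.0421 with the replicate block and 0.0423 without DMSO replicate 3). HIF1A exons overlap a same-strand transcript, AL137129.1, at a mean of 14.917 TPM against 57.46 TPM for HIF1A, so part of its reads is uncertain. Of 13 hypoxia targets outside glycolysis, 2 were higher and none lower (15.4%, against 7.46% of all genes). The 2 higher in the main fit were DDIT4, an inhibitor of mTORC1 (log2 fold change 1.53, limma adjusted p of 0.00809), and VEGFA, an angiogenic factor (1.07, limma adjusted p of 0.00515). VEGFA exons overlap an antisense gene at a mean of 6.419 TPM against 3.7 TPM for VEGFA, so its reads are uncertain. BNIP3L, the mitophagy receptor and the most abundant of the list, was at 0.04 (limma adjusted p of 0.898). Its exons overlap PNMA2 on the other strand, at a mean of 17.091 TPM against 30.909 TPM for BNIP3L, so part of its reads is uncertain.

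Where carbon leaves glycolysis, 3 of 21 tested branch genes were higher and none lower (14.3%, against 7.46% of all genes, 3.45% as higher). All 3 belong to serine synthesis, which starts from 3-phosphoglycerate: PHGDH, PSAT1 and PSPH. PHGDH, its first enzyme, was at 303.57, 163.72, 171.68 and 206.29 TPM in CR31B and 119.48, 83.18, 107.39 and 134.70 TPM in DMSO, with groups apart (log2 fold change 0.90, limma adjusted p of 0.0286). Its limma adjusted p was 0.0548 to 0.0774 without CR31B replicate 4 or without DMSO replicate 1, 2 or 3, and 0.117 with no filter on low values. PSAT1 and PSPH rose by 1.23 and 1.52 on the log2 scale (limma adjusted p of 0.0038 and 0.00243). In DMSO, PHGDH footprints (111 ± 21.8 TPM) were below those of PGK1, and in CR31B (211 ± 64.2 TPM) their range overlapped that of PGK1. PGD of the pentose phosphate route, the most abundant branch gene with 198 ± 10 TPM in DMSO, had a log2 fold change of -0.03 (limma adjusted p of 0.926).

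For pyruvate handling in mitochondria 1 of 11 was higher and 1 lower (18.2%, against 7.46% of all genes). PCK2, the mitochondrial phosphoenolpyruvate carboxykinase, rose from 5.35 ± 2.43 to 16.6 ± 7.04 TPM, although its groups overlapped (log2 fold change 1.44, limma adjusted p of 0.0285). It was higher in 4 of 4 pairs, and the limma adjusted p was 0.0643 to 0.089 without CR31B replicate 1, 3 or 4 or without DMSO replicate 2 or 4, and 0.131 with no filter on low values. ME2, a mitochondrial malic enzyme, fell from 18.6 ± 1.1 to 12.9 ± 0.895 TPM (log2 fold change -0.50, limma adjusted p of 0.0203, and 0.0576 to 0.0762 without CR31B replicate 4 or without DMSO replicate 1 or 4). PDHA1, the catalytic subunit of pyruvate dehydrogenase, had a log2 fold change of -0.25 (limma adjusted p of 0.214).

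**Figure D5:**
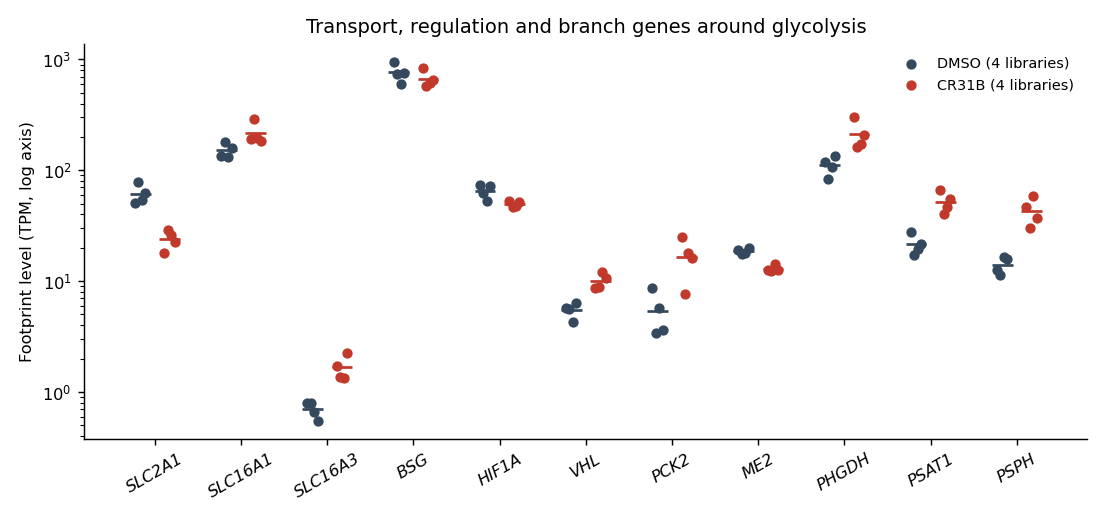
Footprint level in TPM, on a log axis, of 11 genes of transport, regulation and branch pathways in 4 DMSO and 4 CR31B libraries; points are libraries and bars are group means. SLC2A1 and ME2 are lower in CR31B with groups apart, while SLC16A1, SLC16A3, VHL, PHGDH, PSAT1 and PSPH are higher with groups apart.

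The promoters of the 10 enzymes, as 18 RefSeq windows of 300 bases (GRCh38.p14) that run from 250 bases before to 50 after a start site, were searched on both strands for CACGTG, the E-box read by MYC proteins, and for ACGTG and GCGTG, which are parts of hypoxia response elements. Every match of the first is also a match of the second. The E-box was in 22.2% of these promoters (4 of 18, in HK2, ALDOA, GAPDH and LDHA) against 7.26% of all 35116 promoters. ACGTG was in 61.1% against 21.4%, and GCGTG in 50% against 36.5%. Windows of 1 gene can overlap, so the 18 are not independent.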

How the data were processed

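Ribosome footprints of 8 libraries (4 CR31B, 4 DMSO) were analysed. The authors deposited 1 table of TPM, and per the submitters' processing notes cutadapt 3.2, Bowtie2 2.3.4.1, STAR 2.7.1a and RSEM 1.2.28 were used with hg38. The annotation, the strand setting, the handling of reads with several positions and the assignment of libraries to the sequencing runs are not given in the sources used here. Depth is unknown, since TPM keeps no read counts. Columns were matched to libraries by their descriptions, and 0 were left over. Symbols were found for 60481 of 60651 identifiers.

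Values were analysed as log2(TPM + 1), a scale that understates the change of low genes. The 11778 genes whose mean reached 1 TPM were fitted with limma 3.58.1 (eBayes with trend, R 4.3.3), with Benjamini-Hochberg adjustment over all of them and a threshold of 0.05. All 10 enzymes passed the filter. Ratios of paralogs were compared by exact permutation over 70 assignments. The fit was tested on 5 simulated tables with independent errors, in which 200 genes changed 2-fold or 4-fold. It recovered 72.6% of the 2-fold and 96.2% of the 4-fold changes, and 5.06% of its calls were false. Smaller changes, such as those of the enzymes, and deviations shared by libraries of the same number were not simulated. The enzymes and gene lists were chosen with earlier results of these data known. The genes named were the 10 enzymes, their isoforms of at least 1 TPM, the called genes and the most abundant gene of each further list, and the most abundant copy of each enzyme. Some items that these rules select are not reported here.

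After removal of group means, libraries with the same replicate number deviated together across genes for replicates 1 to 3 (correlations 0.333, 0.324 and 0.301). For replicate 4 the correlation was 0.105, below the 0.134 of CR31B replicate 4 with DMSO replicate 1. The other pairs of unlike number ran from -0.206 to 0.0868. The number served as a block in an alternative fit, and its meaning for replicate 4 is less clear. Leaders and windows came from 1 transcript per gene of GENCODE 29, preferring the principal isoform, a consensus coding sequence and a CAGE-supported start, then the start nearest a RefSeq start, and promoters came from RefSeq. Other steps used Python 3.11.15, pandas 2.3.3, NumPy 2.4.6, Biopython 1.88 and matplotlib 3.10.9.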

Additional observations from a re-analysis of the deposited data

Results flagged for a closer look

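Dixon's gap test was run on 84 sets of 4 values, and 2 sets held a value set apart; chance gives about 1 in 20. For ALDOC it was CR31B replicate 1, with 9.74 TPM where the remaining CR31B libraries had 7.69 to 7.96 TPM. For VEGFA it was DMSO replicate 2, with 1.46 TPM where the remaining DMSO libraries had 2.16 to 2.29 TPM.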

How the results depend on the processing

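Over all genes tested, 879 passed; 442 passed with no filter on low values, 1453 with the replicate block, and from 404 (without DMSO replicate 4) to 785 when 1 library was left out. Of the 10 enzymes, 0 passed with no filter and 0 after quantile normalization. With 1 library left out, 0 to 1 passed, and the 1 was seen without DMSO replicate 3. Of the further lists, 10 genes passed, 16 with the replicate block, 16 after rescaling over protein-coding genes and 7 to 11 with 1 library left out. Among the genes named with values, the replicate block changed the calls of ALDOC, SLC16A1 and HIF1A and of the markers DBH (limma adjusted p of 0.029) and COL1A1 (0.0472).

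Signs turned for small estimates. After quantile normalization the log2 fold change was 0.066 for TPI1, 0.084 for PGK1, -0.0072 for PFKL and 0.033 for PGD, and after rescaling over protein-coding genes it was 0.03 for TPI1, 0.027 for PGK1 and 0.0014 for PGD. With 1 library left out it ran from -0.049 to 0.051 for TPI1, -0.0077 to 0.18 for GAPDH, -0.11 to 0.069 for PGK1, -0.02 to 0.12 for PKM, -0.064 to 0.12 for PFKL, -0.5 to 0.099 for PGAM1, -0.16 to 0.074 for ENO2, -0.19 to 0.065 for PGD and -0.039 to 0.094 for BNIP3L. The ALDOA over ALDOC log2 ratio was 0.0028 with a pseudocount of 0.1 and ran from -0.11 to 0.039 with 1 library left out. The cause was not tested. Of all single-gene values under the alternatives, 616 kept their direction and side of the threshold, 7 crossed to pass, 30 crossed to fail and 30 turned sign.

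Paired sign-flip tests of the ratios cannot go under a p of 0.125, nor can 3 against 4 libraries go under 0.0571. Testing protein-coding genes alone and adding pseudogenes by shared windows were chosen after seeing the data. Without read counts, counting error at low TPM is unknown.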
